A study of Homo sapiens with 6 samples.

Results

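The HOX genes of the A, B, C and D clusters were described in MO3.13 cells with and without exposure to Klotho. Members were all genes named HOX, a cluster letter and a number that had a probe set of their own in the deposited log2 table, which gave 22 genes among the 14232 with such a probe set. Klotho-treated cells were exposed for 3.5 h, in DMEM without serum, to 0.4 µg/mL of recombinant mouse Klotho protein. Control cells had the treatment label control, and for them the labels name only DMEM with 10% fetal bovine serum, in which both groups had been grown. The effects of Klotho and of serum withdrawal can therefore not be told apart. Each group had 3 arrays, numbered 1 to 3 in the titles, and whether they stem from separate cultures is not stated; the p-values therefore cover only the spread between these samples, possibly a technical one. Klotho is a membrane and circulating protein known as a co-receptor for the hormone FGF23, and the study's title asks about signalling pathways it affects in this line.

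HOX proteins are homeodomain transcription factors that give cells their position along the head-to-tail axis. Their genes lie in tight clusters, and genes of low paralogue number, at one end of a cluster, are used in the hindbrain, whereas those of high number, at the other end, are used in the trunk, limbs and tail. Polycomb complexes keep unused HOX genes silent, trithorax complexes keep used ones active, and adult and tumour cells often retain a pattern of HOX genes that reflects where their tissue arose. MO3.13 was made by fusing adult human oligodendrocytes with a rhabdomyosarcoma line, a tumour line of the skeletal muscle lineage, although the labels call it an oligodendroglioma line.

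Of the 39 human HOX genes that RefSeq lists, the 22 members were spread unevenly over the clusters. The HOXB cluster on chromosome 17 had 8 of 10 genes, HOXC on chromosome 12 had 6 of 9 and HOXD on chromosome 2 had 7 of 9. The HOXA cluster on chromosome 7 was represented by 1 gene of 11, HOXA2, so nothing can be said here of that cluster as a whole. Another 7 HOX genes had only probe sets shared with other genes, and 10, all of the HOXA cluster, were not analysed here. All 22 members were measured by 1 probe set each. A probe set's brightness depends on its probes as well as on the transcript, so the order of signals among genes given here is not an order of transcript amounts.

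The 6 arrays were closely alike. They had medians of 6.36 to 6.47 (log2) and correlated with each other at r = 0.985 or more across probe sets. Of the markers checked against the cell type label, 15 of 16 measured skeletal muscle genes lay above a floor set by olfactory receptor genes (5.09), led by the acetylcholine receptor gene CHRNA1 and the cardiac actin gene ACTC1. Of 13 measured oligodendrocyte genes 11 did, led by CNP, while MOG, a defining gene of mature oligodendrocytes, and UGT8 did not. The median of the gene means was 8.25 for the muscle list and 5.98 for the oligodendrocyte list. For all probe sets it was 6.40. Counts for astrocyte (3 of 8), neuron (2 of 9) and microglia or blood (1 of 7) genes were lower. Over all genes the share above this floor was 74.1%, so a count above it does not by itself mark a lineage. The mean of the muscle markers was 7.86 to 7.89 on the Klotho-treated arrays and 7.88 to 7.95 on the control arrays. That of the oligodendrocyte markers was 5.83 to 6.05 on the Klotho-treated arrays and 5.83 to 5.93 on the control arrays. The part of these markers in any HOX value was not tested.

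Most of the 22 HOX members were dim in MO3.13, and 3 stood clear of the other members: HOXB2, HOXB13 and HOXD13. The 5 probe sets shared between a HOX gene and another gene are not counted here. They averaged 5.98 to 7.10, all above the floor described next. As no detection calls were at hand, signals were set against 220 olfactory receptor genes, which cells outside the nose mostly leave silent. The floor was the 95th percentile of their means over the 6 arrays, 5.09. Above it lay 14 of the 22 HOX genes (63.6%), against 74.1% of all genes. Only HOXB2, HOXB13 and HOXD13 (13.6%) exceeded the median of all probe sets, 6.40, against 53.4% of all genes. The median of the 22 gene means was 5.45. At a floor on the 99th percentile, 5.53, 11 genes remained, and the same 11 exceeded the 95th percentile of the olfactory receptor genes on every single array, where it ranged from 5.03 to 5.36. The 3 genes lost were HOXB1, HOXB6 and HOXD3. Above the brightest olfactory receptor gene, at 5.95, were 7 members: HOXB2, HOXB3, HOXB13, HOXC8, HOXC12, HOXD9 and HOXD13.

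The HOXB cluster held both the brightest member of all and the next. HOXB2, which patterns the hindbrain, read 8.82, 8.81 and 8.87 on the Klotho-treated arrays and 8.96, 8.77 and 8.82 on the control arrays (log2), above 84.3% of all probe sets. Its 6 readings lay within 0.19 of each other and the groups overlapped. HOXB13, the outlying gene at the posterior end of the cluster and a regulator of the prostate, read 7.75, 7.87 and 7.52 on the Klotho-treated arrays and 8.15, 7.79 and 7.72 on the control arrays, above 71.5% of probe sets. Control array 1 was the highest, Klotho-treated array 3 the lowest, and the remaining readings of the groups were interleaved. The other members of the cluster had lower signals. HOXB3, another hindbrain gene, averaged 6.11 over the 6 arrays and HOXB8 5.58. HOXB6 averaged 5.31 and HOXB1, which gives identity to a single hindbrain segment, 5.33. HOXB9 averaged 5.02 and HOXB5 4.23, both under the floor. The brightest members of this cluster were thus an anterior and a posterior gene. The other 2 genes of the cluster had only shared probe sets, so whether high readings form a continuous stretch cannot be judged.

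None of the 6 HOXC members reached the median of all probe sets, and the other 3 genes of that cluster had only shared probe sets. The brightest was HOXC12, at 6.27, 6.37 and 6.37 on the Klotho-treated arrays and 6.21, 6.36 and 6.32 on the control arrays, the narrowest range of any member (0.16). HOXC8, a gene of the thoracic region, read 5.98, 5.95 and 6.18 on the Klotho-treated arrays and 6.11, 6.38 and 6.09 on the control arrays. Control array 2 was the highest for this gene, and the groups overlapped. HOXC13, needed for hair and nails, averaged 5.62 over the 6 arrays, and HOXC10, used in lumbar motor neurons, 5.59. HOXC11 (4.85) and HOXC9 (4.54) were under the floor.

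In the HOXD cluster the brightest member was HOXD13, the gene at its posterior end. HOXD13, which shapes the digits, read 7.41, 7.17 and 7.22 on the Klotho-treated arrays and 7.29, 7.30 and 7.43 on the control arrays, above 64.4% of probe sets, with overlapping groups. HOXD9 read 6.31, 6.20 and 6.08 on the Klotho-treated arrays and 6.22, 6.27 and 6.11 on the control arrays. HOXD11, a gene of the forearm in mice, averaged 5.70 over the 6 arrays, and HOXD3, a gene of the cervical region in mice, lay just above the floor at 5.11. HOXD10 (4.86), HOXD8 (4.77) and HOXD12 (4.71) were under it. HOXA2, which patterns the hindbrain and the skeleton of the second pharyngeal arch, was the dimmest of the 22 members. It read 4.17, 3.96 and 4.27 on the Klotho-treated arrays and 4.37, 4.22 and 4.30 on the control arrays, with only 19.8% of probe sets dimmer.

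**Figure D1:**
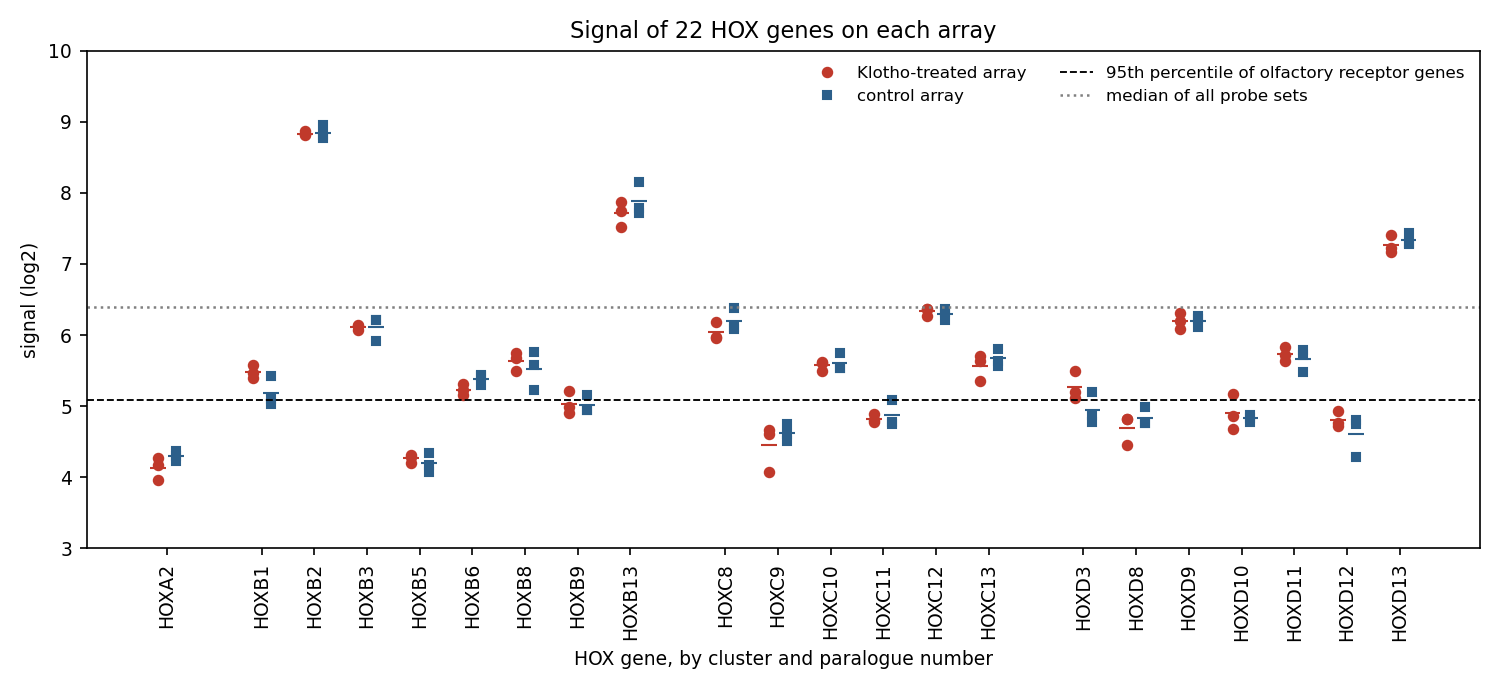
Signal (log2) of the 22 HOX genes on each array, ordered by cluster and paralogue number; circles are the 3 Klotho-treated arrays, squares the 3 control arrays, short lines the group means, the dashed line the 95th percentile of olfactory receptor genes (5.09) and the dotted line the median of all probe sets (6.40). HOXB2, HOXB13 and HOXD13 lie above the dotted line on every array, and treated and control readings overlap for all 22 genes.

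Seen by paralogue number, the signals followed no gradient from anterior to posterior. The 5 anterior members (numbers 1 to 3) had a median of 5.33, with 4 above the floor. The 5 central members (numbers 5 to 8) had a median of 5.31, with 3 above it, and the 12 posterior members (numbers 9 to 13) a median of 5.60, with 7 above it. Paralogue group 13 was the only one of 3 members with all of them above the floor: HOXB13 at 7.80, HOXD13 at 7.30 and HOXC13 at 5.62. Its median, 7.30, was also above those of group 8 (5.58) and group 9 (5.02), the other groups of 3. The widest spread within a group was that of group 2, with HOXB2 at 8.84 and HOXA2 at 4.22. In group 9 the order was HOXD9 at 6.20, HOXB9 at 5.02 and HOXC9 at 4.54, and in group 12 HOXC12 read 6.32 and HOXD12 4.71. Groups 4 and 7 had no member. These are descriptions of single probe sets, and no test was made between genes.

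RefSeq promoter windows were matched by symbol for 8 of the 22 members and are given for 3 of them, because HOXD13 was the brightest member with a window and HOXB1 and HOXD3 had the largest differences between the groups. Each is the 250 bases before the gene's start in GRCh38.p14, 5′ to 3′ on the gene's own strand, with CG dinucleotides in capitals, since promoters of developmental genes kept silent by Polycomb complexes are typically rich in CG.
HOXD13, chr2:176092471-176092720, plus strand: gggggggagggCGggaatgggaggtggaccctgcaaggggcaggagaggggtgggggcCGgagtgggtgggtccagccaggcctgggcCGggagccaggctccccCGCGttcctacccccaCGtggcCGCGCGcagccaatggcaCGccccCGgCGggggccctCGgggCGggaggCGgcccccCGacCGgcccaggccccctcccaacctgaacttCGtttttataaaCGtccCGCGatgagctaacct
HOXD3, chr2:176157057-176157306, plus strand: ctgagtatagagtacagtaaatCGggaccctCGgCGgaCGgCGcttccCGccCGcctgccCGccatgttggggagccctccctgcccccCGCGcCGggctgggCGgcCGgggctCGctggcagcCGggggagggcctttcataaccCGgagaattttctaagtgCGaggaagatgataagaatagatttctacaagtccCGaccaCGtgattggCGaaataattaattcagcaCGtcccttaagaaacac
HOXB1, chr17:48531012-48531261, minus strand: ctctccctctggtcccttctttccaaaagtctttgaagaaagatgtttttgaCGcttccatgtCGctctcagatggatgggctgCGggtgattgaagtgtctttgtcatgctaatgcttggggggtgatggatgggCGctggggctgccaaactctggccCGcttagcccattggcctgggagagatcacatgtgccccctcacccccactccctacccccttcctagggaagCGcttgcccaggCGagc

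The windows of HOXD13 and HOXD3 each held 21 CG and that of HOXB1 held 7. Over 35116 promoter windows of the same length the median was 11 and the upper quartile 23. The 8 HOX windows ranged from 7 in HOXB1 and 8 in HOXA2 to 28 in HOXD8. HOXD13 and HOXD3 had the same number of CG at mean signals of 7.30 and 5.11, and HOXD8, with the most, averaged 4.77. Searched on both strands, TATAAA was found in 1 of the 8 windows, that of HOXD13, against 10.7% of all windows. The letters CCAAT were in 6 of 8, against 32% of all. The half-site AGGTCA, which retinoic acid receptors bind, was in 0 of 8, against 12.1% of all. These are matches of letters and not binding sites.

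The comparison of Klotho-treated with control cells asked whether any HOX gene differed after 3.5 h. None passed. Over the whole table of 22011 probe sets, limma called 0 (0%) at an adjusted p under 0.05; the lowest value was 0.343. Among the 22 HOX genes 0 had an adjusted p under 0.05, with 0.998 as the smallest, and 0 had an unadjusted p under 0.05, against 295 of 14232 genes (2.07%). With other scalings of the arrays the last count was 1 (HOXB1), and with array quality weights it was 2 (HOXB1 and HOXA2). The treated and control readings overlapped for all 22, whereas 7.89% of all genes had groups that did not overlap. Differences ran from -0.17 (HOXB13) to 0.32 (HOXD3) on the log2 scale. The median over the members was -0.01, against -0.03 over all genes. As deposited, 9 members were higher and 13 lower in treated cells, against 37.4% of all genes higher and 62.6% lower. After median centring of the arrays the split was 14 higher and 8 lower, and it was 12 and 10 with quantile normalization or cyclic loess.

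HOXB1 and HOXD3, both from the anterior ends of their clusters, had the smallest p and the largest differences. HOXB1 read 5.39, 5.47 and 5.57 on the Klotho-treated arrays and 5.02, 5.42 and 5.10 on the control arrays. The highest control reading, on array 2, lay between the treated ones. Its difference was 0.30 (95% interval -0.0039 to 0.60; limma, unadjusted p = 0.0522, adjusted p = 0.998). HOXD3 read 5.20, 5.12 and 5.50 on the Klotho-treated arrays and 4.87, 5.19 and 4.78 on the control arrays. Control array 2 was again within the treated range. The difference was 0.32 (95% interval -0.04 to 0.68; limma, adjusted p = 0.998). Both genes lie near the floor of 5.09, where a difference in signal need not be one in transcript. Without control array 2 the difference was 0.42 for HOXB1 and 0.45 for HOXD3 (limma, unadjusted p = 0.00642 and 0.0221, adjusted p = 0.866 for both). Leaving out certain other arrays gave smaller values: HOXB1 was 0.22 without control array 1 (limma, unadjusted p = 0.148), and HOXD3 was 0.21 without Klotho-treated array 3 (limma, unadjusted p = 0.206).

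The 4 members next in order of p differed by less. HOXB6 read 5.16, 5.31 and 5.23 on the Klotho-treated arrays and 5.43, 5.29 and 5.42 on the control arrays, a difference of -0.15 (95% interval -0.35 to 0.05). Only control array 2 fell among the treated readings. HOXA2 differed by -0.17 (95% interval -0.42 to 0.09) and HOXC8 by -0.16 (95% interval -0.43 to 0.12). With each array left out in turn, the HOXA2 difference ranged from -0.23 (without Klotho-treated array 3) to -0.08 (without Klotho-treated array 2). That of HOXC8 ranged from -0.23 (without Klotho-treated array 3) to -0.06 (without control array 2). HOXD12 read 4.72, 4.94 and 4.76 on the Klotho-treated arrays and 4.28, 4.80 and 4.75 on the control arrays, a difference of 0.19 (95% interval -0.18 to 0.57). Here control array 1 stood below the other 5 readings. Without control array 1 the HOXD12 difference was 0.03, and without Klotho-treated array 2 it was 0.13. It was 0.29 without control array 2, the largest value with 1 array left out. The other 16 members differed by -0.17 to 0.12, with unadjusted p of 0.285 or more in limma.

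Differences in signal of moderate size were bounded for most members. The standard error of a member's difference had a median of 0.11, the same as over all genes when rounded. For all 22 genes the 95% interval excluded a change of 2-fold or more. It excluded a change of 1.5-fold or more for 19 (86.4%), against 91.7% of all genes. The 3 whose intervals reached further were HOXB1, HOXD3 and HOXC9. These bounds are on signal, and for the 8 members under the floor they need not hold for the transcript. For HOXB2, the brightest member, the difference was -0.01 with a 95% interval of -0.21 to 0.18, for HOXB13 -0.17 (-0.53 to 0.18) and for HOXD13 -0.07 (-0.30 to 0.16). The HOXB13 difference was -0.04 without control array 1 and -0.08 without Klotho-treated array 3, but -0.26 without control array 3. That of HOXD13 ranged from -0.14 to -0.03 with each array left out in turn. Each interval stands for its own gene, and none is adjusted for the number of genes. Like the p-values, the intervals cover only the spread between these samples, possibly a technical one.

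**Figure D2:**
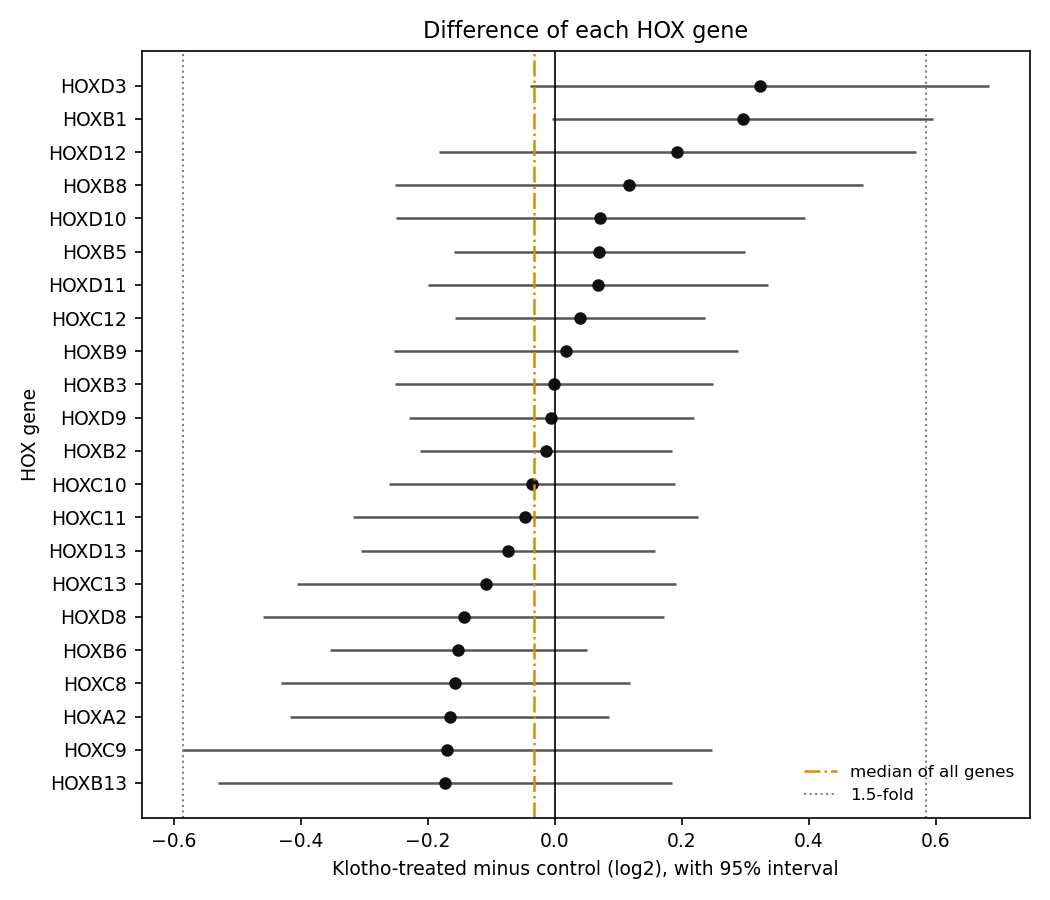
Difference of each HOX gene, Klotho-treated minus control (log2), with its 95% interval from limma; dotted lines mark a 1.5-fold change and the dash-dotted line the median of all genes (-0.03). All 22 intervals include 0, and those of HOXB1, HOXD3 and HOXC9 reach past 1.5-fold.

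Factors that work with HOX proteins or control their genes were read on the same arrays, and 0 of their members had an adjusted p under 0.05 in limma. The TALE homeodomain proteins of the PBX, MEIS and PKNOX families bind DNA together with HOX proteins. All 6 with a probe set of their own lay above the floor, against 74.1% of all genes. The 6 means ran from 6.16 to 7.18, with PKNOX2 and MEIS2 the brightest. Of 25 measured Polycomb genes 24 were above the floor. Among them MTF2 averaged 10.40 and SUZ12, a core subunit of the complex that methylates histone H3, 9.96. Of 17 measured trithorax and HOX activator genes 16 were above it, led by DPY30 at 10.47. MEN1, the menin gene, differed by -0.16 (95% interval -0.35 to 0.04). The methyltransferase gene KMT2D differed by -0.13 (95% interval -0.33 to 0.06) and its relative KMT2A by -0.21 (95% interval -0.56 to 0.14). For MEN1 and KMT2D, 2 of the 17 genes, the groups did not overlap. The same held for 3 of the 25 Polycomb genes, 0 of the 6 TALE genes and 7.89% of all genes. The medians of the differences were -0.05 for the TALE list, -0.07 for the Polycomb list and -0.07 for the trithorax list, against -0.03 over all genes, and within 0.02 of 0 under the other 3 scalings.

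Other homeobox genes that are not in the HOX clusters gave a second scale for the HOX signals. The ParaHox and CDX genes, relatives of the HOX genes used in gut and early embryo, had 5 of 6 members above the floor and reached 6.98 in GSX1. Genes that pattern the forebrain and midbrain, where HOX genes are not used, had 13 of 17 above it and reached 7.24 in LHX2. Over all genes the share above the floor was 74.1%, so a signal above it does not set these homeobox genes apart. HOXB2, HOXB13 and HOXD13 were the 3 members above the brightest gene of both lists. A list of muscle and limb genes, all homeobox genes except the T-box genes TBX4 and TBX5, had 14 of 15 above the floor. The exception was TBX5. This list was led by SIX4, an activator of the muscle programme, at 9.37 and MEOX2, a regulator of limb muscle, at 9.06. In these 3 lists 0 genes had an unadjusted p under 0.05 in the treatment comparison.

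**Figure D3:**
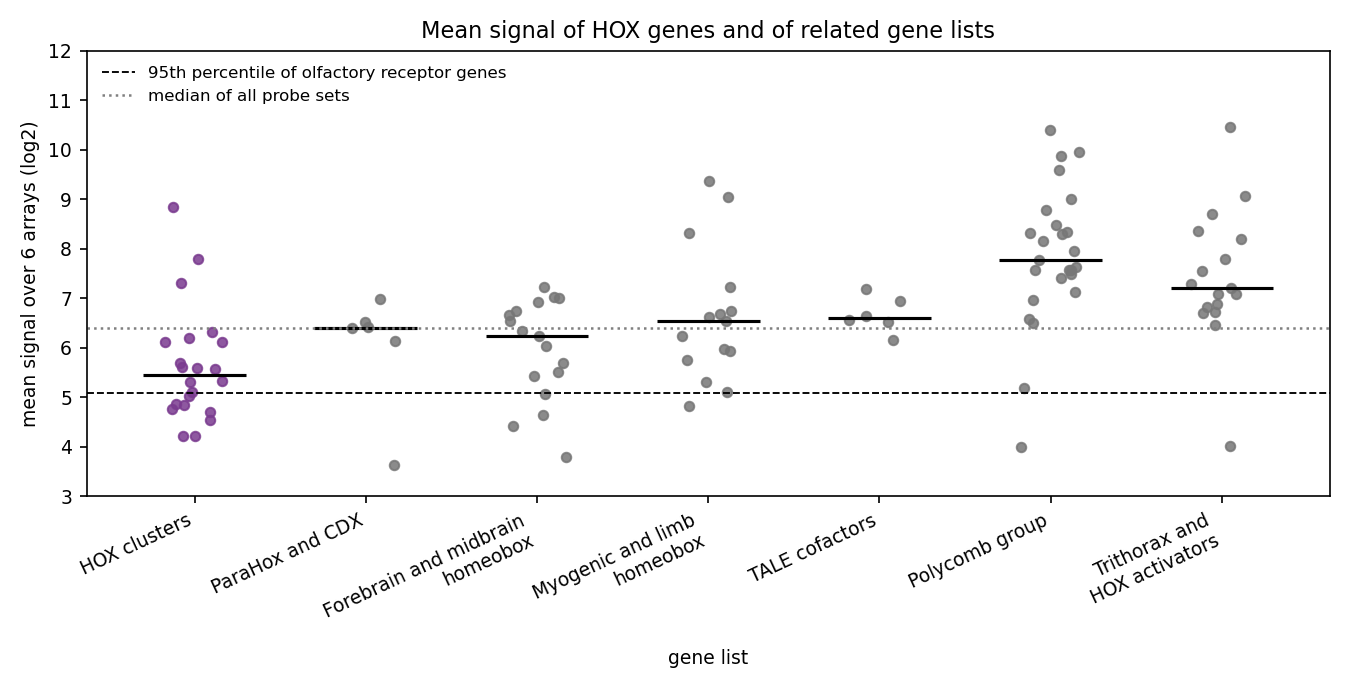
Mean signal over the 6 arrays (log2) of each gene in the HOX clusters and in 6 related lists; each point is a gene, the short line is the list's median, the dashed line the 95th percentile of olfactory receptor genes (5.09) and the dotted line the median of all probe sets (6.40). Sideways position within a list carries no value. The muscle and limb list also holds the T-box genes TBX4 and TBX5. The HOX median is 5.45, and HOXB2, HOXB13 and HOXD13 are the 3 HOX genes above the dotted line.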

How the data were processed

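The deposited values are log2 signals, summarized by the authors to probe sets, in 1 table for all 6 arrays. Per the submitters' processing notes these come from RMA, with no version; the sources used here name no software or filter. Per the labels' protocols, 100 ng of total RNA per sample was amplified with a Nugen protocol into biotinylated cDNA. Groups were taken from the sample titles.

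Of 22011 probe sets, the probe annotation gave 14432 with 1 symbol, 2408 with several and 5171 with none. A gene was represented by its own probe set of highest mean over the 6 arrays. All 22 members matched RefSeq by Entrez number. The fit used lmFit and eBayes of limma 3.58.1 (R 4.3.3) on all probe sets (2-sided, Benjamini-Hochberg adjustment over all probe sets, threshold 0.05), and 95% intervals use the moderated variance. The fit was tested on simulated data whose planted changes were larger than any HOX difference found here. That test does not show how changes as small as these would be called. Values on every array are given for the 2 brightest members of each cluster and the 6 of smallest p. Of other lists, genes of smallest p or highest mean are named. Exceptions are MOG, UGT8, TBX4, TBX5 and EVX1, named after their values were seen. The members and lists were chosen with earlier results of these data known. Arrays have no read depth, and their number limits the precision. No scan dates were at hand. Alternatives were other scalings, removal of dim probe sets, a trended robust prior, array weights, a block on the replicate number, means over probe sets, other floors and leaving out arrays.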

Additional observations from a re-analysis of the deposited data

How the results depend on the processing

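The count of probe sets past the adjusted threshold stayed at 0 under all alternatives that test probe sets, and no HOX member passed it in any of the 327 refitted differences over 15 alternatives, where the smallest limma adjusted p of a member was 0.648. The count of HOX members with an unadjusted p under 0.05, 0 as deposited, was 1 with median centring, quantile normalization, cyclic loess or without the probe sets under the lower quartile, in each case HOXB1. It was 2 with array quality weights (HOXB1 and HOXA2) and 2 with the probe sets of each gene averaged (HOXB1 and HOXD3). Averaging changed no HOX value, as each member has 1 probe set, and only the moderated variance differed. The count was 0 to 2 when arrays were left out in turn, the 2 being HOXB1 and HOXD3 without control array 2. With the replicate block it was 0 and the median difference was -0.01. Same-numbered arrays of the groups deviated with correlations of -0.18, 0.06 and -0.14, and other pairs with -0.13 to 0.24. Deviations from a group's own mean constrain each other, so these values cannot show whether same-numbered arrays were prepared together. The median difference of the members ranged from -0.059 to -4.1e-05 with 1 array left out, and was 0.042, with 16 higher and 6 lower, without control array 1 and Klotho-treated array 3 together, an alternative chosen after seeing the data; the cause was not tested. No sign could change under removal of dim probe sets, the trended robust prior, the replicate block or averaging, which leave each member's difference as deposited. The 327 refits include those that could not change a sign. Under the other alternatives a member's sign changed in 40 refits. None of these members was past a threshold as deposited, so these were not counted as reversals. HOXB1 stayed higher in treated cells in all 15 alternatives (0.17 to 0.42), as did HOXD3 (0.17 to 0.45). These 15 include the alternatives that could not change a sign. The number of HOX members above the floor was 14 under each scaling, 13 or 14 with arrays left out, 15 with the 90th percentile, 11 with the 99th, and 19 above the lower quartile of all probe sets.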

Other observations

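The DNA beside the HOX clusters was also represented on the arrays. Of 20 genes listed as flanking the 4 clusters, 17 had a probe set of their own. Against 74.1% of all genes, 14 of these lay above the olfactory receptor floor. The brightest were CBX5, a heterochromatin protein gene near the HOXC cluster, at 10.23, and ATP5MC3, a subunit gene of mitochondrial ATP synthase near the HOXD cluster, at 10.02. PRAC1, which lies between HOXB13 and the rest of the HOXB cluster, averaged 5.96 in Klotho-treated and 6.22 in control cells, a difference of -0.25 (95% interval -0.56 to 0.05). EVX1, the homeobox gene at the posterior end of the HOXA cluster, was named after its value was seen and averaged 6.28. Of the noncoding RNA genes of the clusters 1 of 24 had a probe set of its own, HOXB-AS3, at 6.08 ± 0.14 in Klotho-treated and 6.07 ± 0.10 in control cells (log2, SD, n = 3); it overlaps HOXB genes on the other strand, and the handling of strand is not stated. The 5 probe sets shared between a HOX gene and another gene averaged 5.98 to 7.10 and are not assigned to a gene.

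Retinoic acid sets the anterior limits of HOX genes in the embryo. Of 19 measured genes of its pathway 13 lay above the floor, against 74.1% of all genes. RDH10, which makes retinaldehyde, averaged 9.50 and CRABP2, which carries retinoic acid to its receptors, 8.78. CRABP2 averaged 8.72 in Klotho-treated and 8.85 in control cells, a difference of -0.14 (95% interval -0.33 to 0.06), with groups that did not overlap. CYP26A1, an enzyme that degrades retinoic acid, lay under the floor and differed by 0.15 (95% interval -0.07 to 0.37), also without overlap. That held for these 2 of the 19 genes, against 7.89% of all genes, and 0 had an unadjusted p under 0.05 or passed the adjusted threshold in limma.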
